A study of Homo sapiens with 1 sample.

Results

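The accessible chromatin of chromosome 14 was described from the ATAC-seq peaks of 1 library of 786-O cells. Its members were all peaks of the list whose summit, the base of highest signal, lay on chromosome 14 of hg38. There were 1990 such peaks, of 88615 on the primary chromosomes and 88676 on all sequences. Each summit was placed in a 5 Mb bin and called a promoter peak when it lay in a promoter window, which runs from 1 kb before a transcription start site (TSS) of GENCODE to 100 bp past it. The remaining summits are called other peaks. The rule used the position of a summit and neither its fold nor its score.

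786-O is a long-established human line of clear cell renal carcinoma (ccRCC), and the library came from cells carrying an empty vector, the control arm of a study of the SWI/SNF subunit DPF3. The cells overexpressing DPF3a are not analysed here. There was no replicate, so no p-value is given, and all intervals are exact 95% intervals that cover counting error only. The cell type was checked on marker genes of all chromosomes. Of 7 renal and ccRCC markers 4 (PAX8, PAX2, CDH16 and EPAS1) had a promoter peak, a share like the 61.4% of all protein-coding genes, and CA9, CDH6 and LHX1 had none, so these markers alone do not set the cells apart as renal. The same was true of 1 of 5 blood markers (CD14), of 0 of 4 endothelial markers and of 0 of 3 hepatic markers.

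In ATAC-seq the Tn5 transposase inserts adapters where DNA is not wrapped in nucleosomes, and such sites are mostly gene promoters, enhancers and insulators. Chromosome 14 is acrocentric. Its short arm holds ribosomal and other repeats, so practically all its protein-coding genes are on the long arm, 14q. Loss of 14q is a recurrent event in ccRCC, and 14q carries HIF1A, which encodes the oxygen-regulated transcription factor HIF-1α. The fold of a peak is the pileup of reads at its summit plus 1, divided by the genome-wide background pileup plus 1, so that the background is the same for every peak. Fewer copies of a chromosome and less accessible DNA per copy therefore cannot be told apart in a fold, and copy number was not measured.

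The sequences at the strongest summits show what lay at the centre of the chromosome's most accessible sites. Each is the window of 50 bp to either side of a summit, read from hg38 on the plus strand. Capitals mark matches, on either strand, to any of 11 short motifs: AP-1 (TGACTCA or TGAGTCA), the hypoxia response element (ACGTG or GCGTG), E-box (CACGTG, which contains ACGTG), NRF1 (GCGCATGC), ETS (CCGGAAGT), SP/KLF (GGGCGGG), NFY (CCAAT), TEAD (GGAATG), RUNX (TGTGGT), HNF1 (GTTAAT) and the CTCF core. The 3 promoter peaks of highest fold belonged to SEL1L (chr14:81533971-81534071), PNN (chr14:39175014-39175114) and SPTLC2 (chr14:77616815-77616915). Their capitals were CCAAT or its reverse complement in all 3 windows, plus 1 SP/KLF match in PNN.
SEL1L promoter: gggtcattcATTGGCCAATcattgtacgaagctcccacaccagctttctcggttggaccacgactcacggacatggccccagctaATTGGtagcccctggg
PNN promoter: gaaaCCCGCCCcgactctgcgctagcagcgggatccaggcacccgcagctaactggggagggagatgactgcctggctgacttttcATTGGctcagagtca
SPTLC2 promoter: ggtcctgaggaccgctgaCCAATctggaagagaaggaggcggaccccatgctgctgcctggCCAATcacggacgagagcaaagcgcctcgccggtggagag

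The 4 other peaks of highest fold lay near PRKCH (chr14:61564809-61564909), in introns of RAD51B (chr14:68627336-68627436) and ACTN1 (chr14:68940068-68940168), and upstream of LTBP2 (chr14:74620715-74620815). Their windows shared no motif. The summit near PRKCH held TEAD matches, that near LTBP2 held an AP-1 match and an NFY match, and the intronic windows held none of the 11 motifs.
Peak near PRKCH: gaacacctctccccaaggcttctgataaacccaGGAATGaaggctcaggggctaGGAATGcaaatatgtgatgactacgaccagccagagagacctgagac
Intron of RAD51B: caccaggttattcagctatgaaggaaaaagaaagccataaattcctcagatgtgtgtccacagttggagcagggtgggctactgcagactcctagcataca
Intron of ACTN1: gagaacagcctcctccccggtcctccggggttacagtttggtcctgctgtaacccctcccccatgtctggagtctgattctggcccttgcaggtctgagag
Peak near LTBP2: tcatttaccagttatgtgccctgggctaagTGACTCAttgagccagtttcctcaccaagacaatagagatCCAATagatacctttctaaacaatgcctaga

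Promoter summits of 14q genes with a known part in kidney cancer or growth control are shown for the reader to set beside their folds. They are those of HIF1A (chr14:61695282-61695382), EGLN3 (chr14:33951023-33951123), MAX (chr14:65102507-65102607), NUMB (chr14:73458684-73458784), SAV1 (chr14:50668251-50668351) and FOS (chr14:75278594-75278694). HIF1A held NFY matches and 1 hypoxia response element. MAX, whose protein pairs with MYC on E-boxes, held an E-box and further hypoxia response element matches, FOS held 1 hypoxia response element match, and NUMB held an SP/KLF and an NFY match. EGLN3 and SAV1 held none of the 11 motifs.
HIF1A promoter: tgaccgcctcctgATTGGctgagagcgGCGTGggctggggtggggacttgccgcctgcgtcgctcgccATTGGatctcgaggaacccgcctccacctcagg
EGLN3 promoter: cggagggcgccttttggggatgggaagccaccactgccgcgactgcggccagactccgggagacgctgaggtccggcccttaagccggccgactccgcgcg
MAX promoter: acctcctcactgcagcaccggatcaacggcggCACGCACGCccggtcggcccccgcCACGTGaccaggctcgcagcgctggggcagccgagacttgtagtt
NUMB promoter: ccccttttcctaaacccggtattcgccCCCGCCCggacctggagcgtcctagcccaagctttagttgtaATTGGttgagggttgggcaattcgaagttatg
SAV1 promoter: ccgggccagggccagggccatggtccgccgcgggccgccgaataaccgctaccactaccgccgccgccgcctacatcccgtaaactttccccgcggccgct
FOS promoter: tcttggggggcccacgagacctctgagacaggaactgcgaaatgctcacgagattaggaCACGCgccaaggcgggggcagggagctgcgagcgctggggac

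The depth behind the peaks was low. The pileup at a summit of chromosome 14 ranged from 9 to 117 with a median of 19, and 725 peaks (36.4%) had a pileup under 15. The background pileup was 0.941, and the total number of reads is unknown. The median width was 513 bp, and the peaks covered 1333 kb, or 1.47% of the chromosome's sequenced bases. The median fold was 10.3, with an interquartile range of 6.70 to 17.5.

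Chromosome 14 was sparsely covered with peaks, and the sparse class was the peaks away from promoters. Over its 90.6 Mb of sequenced bases it had 22.0 peaks per Mb (21 to 23.0), against 31.6 (31.4 to 31.8) for the other 21 autosomes pooled. Of these, 20 had a higher density and chromosome 13 alone a lower one, 19.5. With the score above 100 and above 200, 3 and 2 autosomes were lower. Chromosome 15, the other acrocentric chromosome of like length, had 30.1. The density of other peaks was 16.3 per Mb on chromosome 14, below all 21 other autosomes, which ranged from 16.6 on chromosome 13 to 31.5 on chromosome 1. The intervals of chromosomes 14 (15.5 to 17.2) and 13 (15.8 to 17.4) overlap, so their order is not resolved. Without sequence that has a near-identical copy elsewhere, which was measured on chromosome 14 alone, its density of other peaks was 17.3 per Mb. Promoter peaks did not follow this order. Their density was 5.63 per Mb, with 11 autosomes higher and 10 lower. Chromosome 14 was likewise in the middle of the autosomes in GC content, at 40.8% with 11 higher, and in protein-coding genes, at 6.80 per Mb with 9 higher.

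At these densities 510 of the 1990 peaks, 25.6% (23.7 to 27.6), were promoter peaks, against 19.2% on the other autosomes pooled. Of the 21 other autosomes 4 had a higher promoter share, the highest being gene-rich chromosome 19 at 42.7%. The 1480 other peaks comprised 887 in introns (44.6% of all), 471 between genes (23.7%) and 122 in exons (6.13%). Promoter peaks were wider, with a median of 881 bp against 455 bp in introns. Close to the border of the promoter window, 39 summits lay within 100 bp inside it, with a median fold of 13.9, and 27 within 100 bp outside it, with a median fold of 11.9.

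The shortfall of other peaks was present in all 3 classes of distance from genes. Each class count was divided by all sequenced bases, not by the bases at that distance. The classes therefore show how the total splits and not a density near or far from genes. They held 36.1%, 47.2% and 16.7% of other peaks, against 33.3%, 47.6% and 19.0% on the other autosomes. Other peaks under 10 kb from the nearest protein-coding TSS numbered 535, or 5.91 per Mb, against 8.51 per Mb on the other autosomes. From 10 to 100 kb there were 698, or 7.71 against 12.2 per Mb, and beyond 100 kb there were 247, or 2.73 against 4.86 per Mb. The median distance to a protein-coding TSS was 17.4 kb on chromosome 14 and 21.5 kb elsewhere. The median fold was 8.76 in all 3 distance classes.

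**Figure D1:**
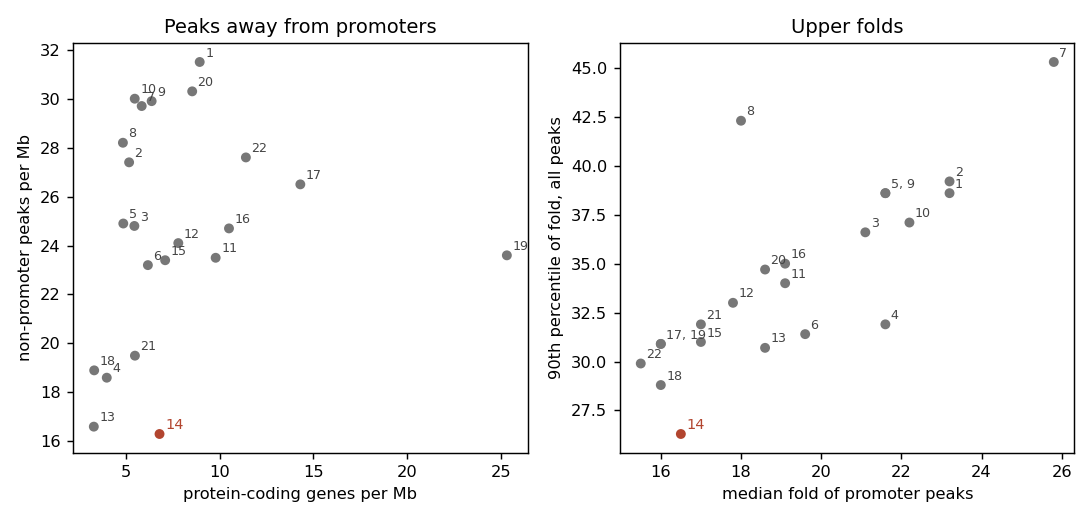
Each point is 1 of the 22 autosomes, labelled by number, with chromosome 14 in red. The left panel plots non-promoter peaks per Mb against protein-coding genes per Mb, and the right panel the 90th percentile of the fold of all peaks against the median fold of promoter peaks. Chromosome 14 is the lowest point on both vertical axes, at 16.3 peaks per Mb and a fold of 26.3, although 12 autosomes have fewer genes per Mb.

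The folds of chromosome 14 were low at the top of their range. The bottom of the range is set by the peak list itself, whose lowest score was 52 and whose lowest fold on chromosome 14 was 5.15, so it could not differ by much. The highest fold, 60.8, was below the highest of every other autosome (63.4 on chromosome 22 to 155 on chromosomes 7 and 8). The 90th percentile was 26.3, against 36.1 on the other autosomes pooled, and the next lowest chromosome was 18 at 28.8. Only 44 peaks, 2.21%, exceeded a fold of 40, against 7.80% on the other autosomes pooled. The share was 2.83% on chromosome 22, the next lowest, 4.23% on chromosome 13 and 5.06% on chromosome 15. For promoter peaks the median fold was 16.5 (15.5 to 18.0) against 19.6 (19.1 to 20.1), with 17 autosomes higher and 4 lower. For other peaks it was 8.76 (8.76 to 9.28) against 9.79 (9.28 to 9.79), with 18 autosomes higher and 3 equal.

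At the same percentile, the ratio of chromosome 14 to the other autosomes was lowest at the top. Both sets end at the same lowest fold, which holds the ratio near 1 at low percentiles, so the slope from low to high percentiles is in part set by that limit. Among promoter peaks the 10th percentile was 6.70 against 6.18, a ratio of 1.08, the 75th was 23.7 against 33.5, a ratio of 0.708, and the 99th was 51.5 against 83.5, a ratio of 0.617. Among other peaks the 10th percentile was 5.15 in both sets, the lowest fold on the chromosome, the 90th was 22.2 against 30.9, a ratio of 0.717, and the 99th was 39.5 against 66.5, a ratio of 0.594. The 75th, 90th and 99th percentiles of other peaks were below those of all 21 other autosomes. Chromosomes 13 and 15 had 90th percentiles over all peaks of 30.7 and 31.0. With the score, 10 times the −log10 q-value, above 200, chromosome 14 still had the lowest density of other peaks, 5.62 per Mb, and the lowest 90th percentile, 34.5.

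**Figure D2:**
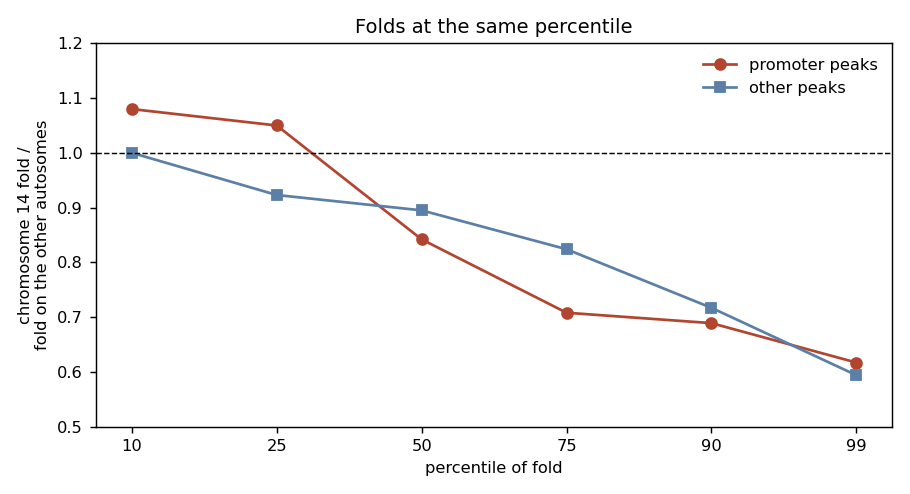
The vertical axis is the fold on chromosome 14 divided by the fold on the other 21 autosomes at the same percentile (horizontal axis), for promoter peaks (red circles) and other peaks (blue squares), with a dashed line at a ratio of 1. The ratio is at or above 1 at the 10th percentile and is 0.617 for promoter peaks and 0.594 for other peaks at the 99th.

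The low upper folds and the sparse other peaks were not limited to a single stretch. Of the 22 bins of 5 Mb, counted from the short-arm end, 17 had at least 2.5 Mb of sequence and 20 peaks. In 16 of these 17 the 90th percentile of fold was below 34.5, the median of 520 such bins on the other autosomes. The values ran from 21 in bin 6 to 35.1 in bin 17. Their median, 25.8, was the lowest of the autosomes, but a median below 34.5 was not particular to chromosome 14. It was 27.5 on chromosome 18, 29.1 on chromosome 13 and 29.6 on chromosome 15. The density of other peaks was also below the median of those 520 bins, 25.8 per Mb, in 16 of 17 bins, the exception being bin 14 at 28.6. The total density was below their median of 31.7 in 14 of 17 bins.

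Along the chromosome, density varied with the genes. The densest bin was bin 5 (20 to 25 Mb), the first with peaks, at 38.4 per Mb (33.2 to 44.2). It held 192 peaks, of which 85 (44.3%) were at promoters, and 142 protein-coding genes. Bin 21 (100 to 105 Mb) had 184 peaks and 36.8 per Mb, and bin 14 (65 to 70 Mb) had 175 and 35.0. The sparsest was bin 9 (40 to 45 Mb), with 30 peaks, 6.0 per Mb (4.05 to 8.57) and 5 protein-coding genes, so that the highest and lowest densities differed 6.40-fold (4.34 to 9.74). Bin 6 (25 to 30 Mb) had 33 peaks, of which 2 were at promoters, and 4 protein-coding genes, and bin 17 (80 to 85 Mb) had 44 peaks and 6 genes. Over the 17 bins, as a description, Spearman's rho of peak density was 0.823 with protein-coding genes per Mb and 0.804 with GC content, which bins share with each other and with the mapping of reads. Promoter peaks lie at genes by definition, so part of the first value is built in. For the density of other peaks alone, rho with protein-coding genes per Mb was 0.678. Median folds followed density less: rho with density was -0.142 for promoter peaks and 0.292 for other peaks.

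The strongest promoter peak of all lay in a sparse bin. Bin 17 held 9 promoter peaks, among them that of SEL1L, an adaptor of the ER-associated degradation ligase, at 60.8 (50.4 to 72.8). Their median fold, 23.2 (9.28 to 39.2), was the highest of the bins. Bin 10 had 22.7 (12.4 to 32.5), so the order of these bins is not resolved. Bin 9 held 4 promoter peaks, one of which was the 54.1 of the promoter shared by KLHL28 and TOGARAM1. The lowest median promoter fold was 7.99, from the 2 promoter peaks of bin 6. Between bins the median fold of other peaks moved little, from 7.73 in bin 18 to 11.3 in bin 19.

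**Figure D3:**
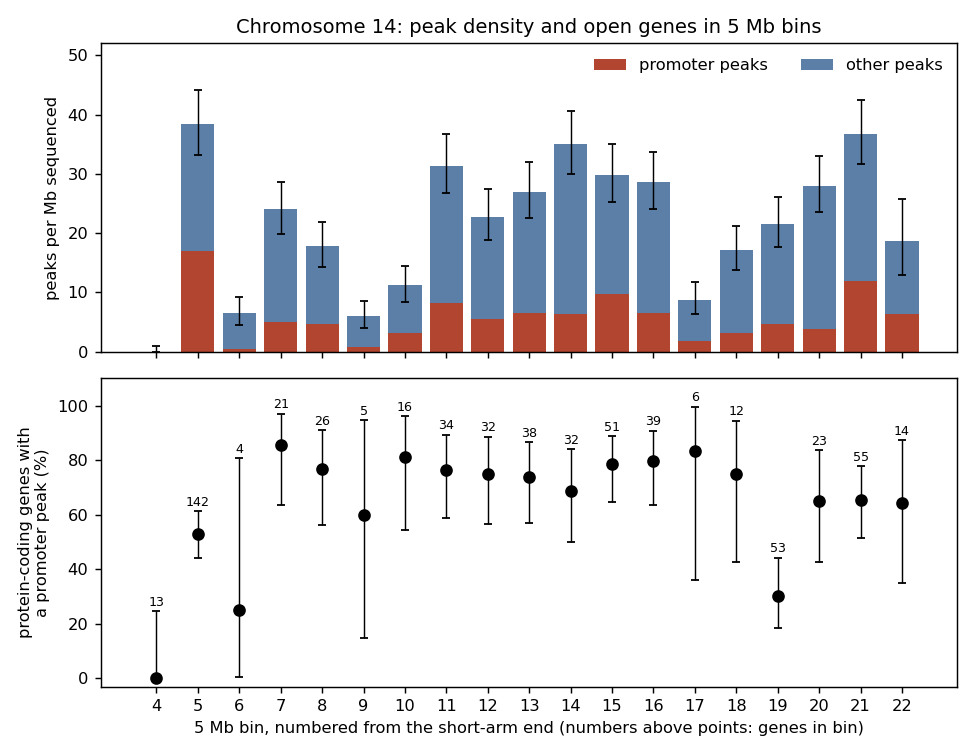
The upper panel stacks promoter peaks (red) and other peaks (blue) per Mb of sequenced bases in each 5 Mb bin, with the exact Poisson 95% interval of the total. The lower panel gives the percentage of protein-coding genes with a promoter peak, with exact 95% intervals and the number of genes above each point. Density runs from 0 in bin 4 and 6.0 in bin 9 to 38.4 in bin 5, while the share of open genes is lowest in bins 4, 6 and 19.

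**Figure D4:**
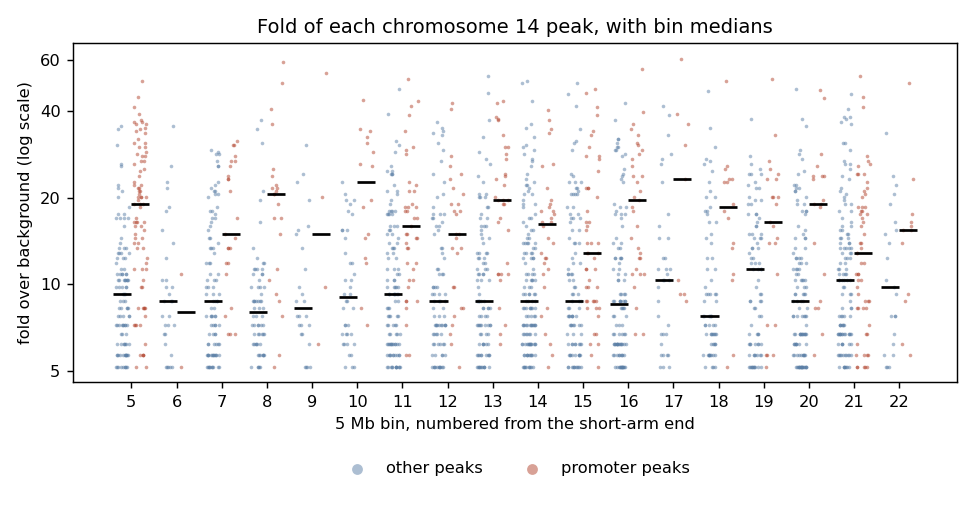
Each point is 1 chromosome 14 peak, placed by its 5 Mb bin and its fold over background on a log scale, with other peaks in blue, promoter peaks in red and short black lines at the median of each class in each bin. The medians of other peaks lie between 7.73 and 11.3 in bins 5 to 22, and those of promoter peaks between 7.99 and 23.2.

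The peaks of highest fold were mostly at promoters. After SEL1L came PNN, which encodes the splicing-associated protein pinin, at 59.3 (49.0 to 71.1), and SPTLC2, a subunit of serine palmitoyltransferase in sphingolipid synthesis, at 56.2 (46.2 to 67.7). The KLHL28 and TOGARAM1 promoter followed at 54.1 (44.3 to 65.4). The intervals of all these peaks overlap, so their order is not resolved at this depth. The strongest peak that was not at a promoter, fold 53.1, lay at chr14:61563788-61565445 in an exon of a gene record without a symbol, 21497 bp from a TSS of PRKCH, which encodes protein kinase C eta. SIVA1 had 53.1, and TXNDC16 with GPR137C and RPS6KA5 had 51.5. The intronic peak of RAD51B had 51.0, as had the shared promoters of PIP4P1 with PNP and of EFCAB11 with TDP1.

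The strongest promoter of each bin was that of PIP4P1 and PNP in bin 5, STXBP6 in bin 6 (10.8), PNN in bin 8, GPR137C and TXNDC16 in bin 11, DAAM1 in bin 12 (42.8), PCNX4 in bin 13 (43.3), GPHN in bin 14 (40.2) and ALDH6A1 with LIN52 in bin 15 (47.9). KLHL28 with TOGARAM1 led bin 9, SPTLC2 bin 16, SEL1L bin 17, EFCAB11 with TDP1 bin 18, RPS6KA5 bin 19, CCNK with SETD3 bin 20 (47.4), SIVA1 bin 21 and TEDC1 bin 22 (50.0). In bins 7 and 10 the leading promoter peaks, 31.4 and 43.8, were at non-coding genes, the latter at RN7SL2, an RNA of the signal recognition particle with many copies in the genome. The strongest other peak of a bin lay in an intron of SAMD4A in bin 11 (47.9), of TSHR in bin 17 (41.7), of EML5 in bin 18 (46.9) and of CCDC85C in bin 20 (47.9). It lay 16710 bp from the TSS of NFKBIA in bin 8 (37.1) and 8387 bp upstream of LTBP2, a matrix protein that binds latent TGF-β complexes, in bin 15 (50.0).

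A few windows held many summits, promoter and other peaks together. The densest 100 kb held 25 summits, at chr14:61493452-61587067 over the end of PRKCH, of which 3 were at promoters, with a highest fold of 53.1. There were 21 such windows of 25 or more on all autosomes, and 10 autosomes had a denser maximum, up to 42. Further dense windows held 20 summits at MIDEAS and PNMA1 and 18 around ZFP36L1. Among gene records with a symbol, RAD51B had the most peaks, 47 over 910 kb, followed by NRXN3 with 31 over 1698 kb, EGLN3 with 23 over an extended record of 539 kb and PRKCH with 22 over 363 kb. Among the 15 gene records with the most peaks MIDEAS was densest for its length, with 14 peaks in 75.2 kb, or 18.6 per 100 kb, against 5.16 per 100 kb in RAD51B.

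Long stretches had no peak at all. There were 19 gaps of over 500 kb between peaks, 15.8 Mb in total, whereas the median gap was 13.9 kb. The longest, 1587 kb at chr14:92846913-94433965, held the TSSs of 24 protein-coding genes, among them CHGA, ITPK1, UBR7, DDX24, IFI27 and SERPINA1. Of its sequence 93.8% had a near-identical copy elsewhere in hg38. The gap lies in bin 19, where the copies were on alternative haplotype sequences of hg38. The next, 1538 kb at chr14:81534403-83072056, began right after the SEL1L peak, held no protein-coding TSS and had no such copy. Gaps of 1200 kb from 43116701, 1087 kb from 27428073 and 1048 kb from 25152007 also held none, and their GC content was 34.7%, 34.8% and 37.4%. The first peak started at 20289439, 4.29 Mb after the first sequenced base.

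Sequence with a near-identical copy moved with the absence of peaks. Tiles of 1 kb that aligned over at least 900 bp with at most 1% divergence to another place in hg38 made up 4964 of 90546 (5.48%), and 3275 of them matched an alternative haplotype sequence. A single summit, of fold 5.67, lay in such a tile. Of 33 protein-coding genes with a TSS there, 2 (6.06%) had a promoter peak, against 389 of 583 (66.7%) elsewhere. Reads of low mapping quality had been removed before peaks were called. In bin 19 copied tiles made up 35.9% of the sequence, and tiles matching an alternative haplotype sequence also made up 35.9%. In that bin 16 of 53 genes (30.2%) had a promoter peak, and outside the copied tiles it was 16 of 27 (59.3%), at 33.7 peaks per Mb. In bin 4 (15 to 20 Mb) 44.7% of tiles were copied, and 0.0273% matched an alternative haplotype sequence. No peak lay in its 3.68 Mb, and 3 counts, the limit used for a count of 0, would be 0.814 per Mb, and none of its 13 protein-coding genes had a promoter peak, including the 10 outside copied tiles.

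Of the 616 protein-coding genes of chromosome 14, 391 (63.5%, 59.5 to 67.3) had a promoter peak, which was near the 61.4% of all protein-coding genes on the primary chromosomes. Of its 651 lncRNA genes 129 (19.8%) had one, against 21.9% of all. The share of open genes thus did not set chromosome 14 apart, as 12 autosomes had a higher share of protein-coding genes and 9 a lower one. Their folds were low: the highest promoter fold of an open protein-coding gene had a median of 20.1 (19.1 to 21.6), and 20 autosomes were higher, chromosome 19 being lower at 19.6. It exceeded 40 in 35 genes (8.95%), and only chromosome 22 had a lower share, 5.40%. Over the bins the share of open genes ran from 25.0% of 4 genes in bin 6 to 85.7% of 21 genes in bin 7, apart from bin 4.

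All 7 listed 14q genes reported here with a part in ccRCC had a promoter peak (interval of the share, 59.0% to 100%, which includes the 61.4% of all protein-coding genes). HIF1A had 37.1 (29.1 to 46.7), with its summit 181 bp upstream of the TSS. This was higher than 96.8% of the chromosome's peaks, promoter and other together, and than 90.9% of those on the primary chromosomes. The 90th percentile of the highest promoter fold of the chromosome's open protein-coding genes was 38.6. NUMB, an inhibitor of Notch signalling, had 46.4 (37.3 to 57.0), and MAX, the partner of MYC, had 33.5 (25.9 to 42.6). EGLN3, an oxygen-sensing prolyl hydroxylase of HIF, had 26.8 (20.1 to 35.1), and DPF3, the SWI/SNF subunit of the study, had 20.1 (14.4 to 27.4). The study describes DPF3 as almost undetectable in 786-O cells, so a promoter peak is not a measure of expression. NDRG2 had 30.9, but at an alternative TSS, with the summit inside the record of ARHGEF40. That summit lay 46454 bp upstream of the canonical TSS of NDRG2, which had no peak. SAV1, a scaffold of the Hippo pathway, was the weakest at 7.21 (4.08 to 12.0). Its interval does not overlap that of HIF1A.

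Inside the 52.7 kb of HIF1A lay 1 further peak, in an intron at chr14:61701837-61702420, with a fold of 10.8 (6.81 to 16.4). No peak followed in the remaining 45.8 kb of the gene. The next peak began at 61761786, 59.4 kb after the intronic one, and was a promoter peak of fold 20.1. EGLN3, by contrast in number of peaks, had 20 other peaks within its record, of folds up to 28.3, and DPF3 had 10, up to 30.9.

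Of 8 proteasome genes 7 had a promoter peak (87.5%, 47.3 to 99.7, which includes the 61.4% of all protein-coding genes), from 14.4 for PSMC1, an ATPase of the 19S particle, to 36.6 for PSME2, which shares its peak with RNF31. PSMA3 had 24.2, PSMA6 23.7, PSMB5 20.6, PSMC6 18.6 and PSME1, a subunit of the 11S activator, 26.3. The exception was PSMB11, the subunit of the thymus proteasome. Of 15 genes of chromatin and RNA control 14 had one (93.3%, 68.1 to 99.8, against 61.4%), with a median of 34.2. The highest were BRMS1L, of a histone deacetylase complex, at 50.0, CCNK, the cyclin of CDK12, with SETD3 at 47.4, ARID4A with ARMH4 at 40.7 and HNRNPC at 39.2. PRMT5, an arginine methyltransferase, had 34.0, SUPT16H and YY1 both had 21.6, DICER1 had 13.9 at an alternative TSS and BAZ1A had 13.4. MTA1 had none, and its nearest summit was 4648 bp away.

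All 9 DNA repair genes had a promoter peak (interval of the share, 66.4% to 100%, against 61.4% of all protein-coding genes), over a wide range of folds with a median of 11.9. TDP1, which resolves topoisomerase adducts, had 51.0 at the promoter shared with EFCAB11, with the summit 1145 bp upstream of its canonical TSS. PARP2 had 44.8, and XRCC3 had 41.2 in a peak shared with ZFYVE21. APEX1, the abasic site endonuclease, had 23.7 in a peak shared with OSGEP. At the low end were FANCM with FKBP3 at 11.9, MNAT1 at 10.8, RAD51B at 9.79 (an alternative TSS, with 8.24 at the canonical one), POLE2 at 8.24 and MLH3, a MutL homologue, at 6.70 (3.71 to 11.3). The interval of MLH3 lies below those of PARP2, XRCC3 and TDP1. RAD51B thus had a weak promoter and, in an intron, a peak of 51.0 (41.5 to 62.1), and these intervals do not overlap.

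Of 11 signalling genes 7 had a promoter peak (63.6%, 30.8 to 89.1, near the 61.4% of all protein-coding genes). PRKCH had the highest, 38.1, at an alternative TSS. The summit lay 203948 bp downstream of the canonical TSS, which had no promoter peak. MAP3K9 followed at 33.0 and ESR2 at 24.2 at an alternative TSS. NFKBIA, the inhibitor of NF-κB, had 20.6 at an alternative TSS. Its peak also covers the canonical TSS, 816 bp upstream of the summit. HSP90AA1 had 18.0 at an alternative TSS in a peak shared with WDR20, and 12.9 at the canonical one. TSHR had 9.28 and TRAF3 had 8.24. AKT1, PRKD1, JAG2 and GCH1 had no promoter peak, though summits lay 392 bp from a TSS of PRKD1 (10.3) and 248 bp from one of GCH1 (9.28). For AKT1 the nearest summit was 4934 bp away, and for JAG2, a Notch ligand, 12345 bp.

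AP-1 and growth factor response genes had a promoter peak in 2 of 4 cases (6.76% to 93.2%, which includes the 61.4% of all protein-coding genes): FOS, an AP-1 subunit, had 20.1 (14.4 to 27.4) and ZFP36L1, which speeds the decay of mRNAs, had 11.3. The AP-1 family members JDP2 and BATF had none. Of 6 TGF-β and BMP genes 3 had one (11.8% to 88.2%, which also includes 61.4%). SNW1, a coregulator that binds SMADs, had 18.0, TGFB3, a TGF-β ligand, had 10.8 (6.81 to 16.4) and LTBP2 had 8.76 (5.23 to 13.9). The ligand BMP4 had no peak within 21682 bp of its TSS, and SMOC1 and DACT1 had no promoter peak.

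Of 11 developmental transcription factors 4 had a promoter peak (36.4%, 10.9 to 69.2, which includes the 61.4% of all protein-coding genes): SIX4 at 19.6, FOXA1 at 11.3, PAX9 at 10.3 and BCL11B at 8.24. NKX2-1, NKX2-8, OTX2, SIX6, ESRRB, GSC and NPAS3 had none, and the summit nearest to OTX2, a forebrain and eye factor, was 138719 bp away. Of 5 imprinted genes of 14q32, coding and non-coding, MEG8 alone had a peak (interval of the share, 0.505% to 71.6%), of fold 8.24 at an alternative TSS, and DLK1, MEG3, RTL1 and MEG9 had none. Of the 4 genes of the granzyme and chymase cluster 1 had a peak (25.0%, 0.631 to 80.6, which includes 61.4%): GZMB had the weakest fold of the list, 5.15 (2.64 to 9.32), and GZMH, CTSG and CMA1 had none. None of the 25 listed genes without a promoter peak had its promoter in copied sequence.

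**Figure D5:**
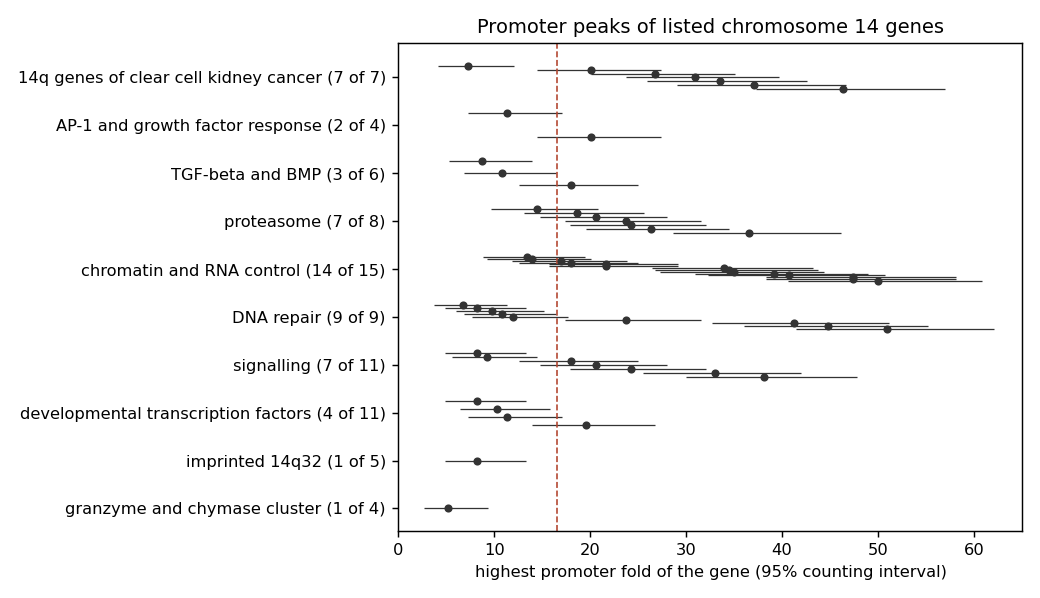
Each point is the highest promoter fold of 1 listed gene with a promoter peak, with its exact 95% counting interval, in rows by gene list with the number of open genes in brackets. The dashed red line is the median fold of all promoter peaks on chromosome 14, 16.5. The highest promoter fold of its open protein-coding genes, which is the measure of the points, had a higher median, 20.1. The ccRCC, proteasome and chromatin lists lie mostly to the right of the line, and the developmental, TGF-β and imprinted lists mostly to its left.

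Of gene families, none of 45 olfactory receptor genes had a promoter peak (upper limit 7.87%). Of these 27 were protein-coding (upper limit 12.8%, against 61.4% of all protein-coding genes), and 18.3% of their span was copied sequence. Of 13 genes of the RNase A family 1 had a peak, RNASE11 (7.69%, 0.195 to 36.0, against 61.4%). Of 12 SERPINA genes, encoding serine protease inhibitors made mainly in liver, 1 had a peak, SERPINA5, with 30.6% of that cluster in copied sequence. Among the 10 protein-coding SERPINA genes the share was 10.0% (0.253 to 44.5, against 61.4%). Of 126 T cell receptor alpha and delta segments 3 had a peak (2.38%, 0.494 to 6.80, beside 61.4% of all protein-coding genes). None of 173 immunoglobulin heavy chain segments had one (upper limit 2.11%), but 97.1% of their span was copied sequence. None of the 54 microRNA genes of 14q32 had a peak at its annotated start (upper limit 6.60%). That start is the end of the hairpin and not the start of the primary transcript, and 6 peaks lay in their 0.252 Mb. The share over all such segments or microRNA genes of the genome was not counted. Solute carrier genes are spread over the chromosome, and 6 of the 13 protein-coding ones had a promoter peak (46.2%, 19.2 to 74.9, which includes 61.4%).

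Motif content at the summits of chromosome 14 was like that of the other autosomes, in promoter and other peaks alike. AP-1 sites, bound by FOS and JUN dimers, were in 270 of 1480 windows of other peaks (18.2%, 16.3 to 20.3), against 17.9% on the other autosomes and 1.31% of flanking windows 1 kb away on chromosome 14. In promoter windows the share was 4.71%, against 6.08% elsewhere. Other peaks with an AP-1 site had a median fold of 10.8, against 8.50 without. By bin the share ran from 12.6% in bin 14 to 32.3% of the 31 other peaks of bin 6. The hypoxia response element was in 24.9% (21.2 to 28.9) of promoter windows, against 26.6% elsewhere and 14.1% of flanking windows, and in 14.6% of other windows, against 12.9% of flanks. SP/KLF sites were in 19.6% of promoter windows and 1.72% of flanks, RUNX sites in 14.8% of other windows and 6.67% of flanks, TEAD sites in 10.2% and 5.39%, and the CTCF core, of the insulator protein, in 2.57% and 0.0364%. E-boxes were in 2.55% of promoter windows, NRF1 sites in 1.18% and ETS sites in 1.18%, against 3.07%, 1.30% and 2.04% elsewhere. HNF1 sites were in 3.92% of other windows, against 4.13% on the other autosomes and 3.68% of flanks. The mean GC content of promoter windows was 62.5%, against 61.8% elsewhere. That of flanking windows was not measured, so the shares at summits and flanks are not matched for base composition.

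CCAAT, the motif bound by NFY, went with the strongest promoters. It was in 85 of 510 promoter windows (16.7%, 13.5 to 20.2), against 10.3% of flanks and 15.5% of promoter windows elsewhere. Promoter peaks with it had a median fold of 24.2 (19.6 to 30.4), and those without it 15.5 (13.9 to 17.0). On the other autosomes the medians were 28.3 (27.3 to 29.4) and 18.6 (18.0 to 18.6). Of the 29 promoter peaks of chromosome 14 with a fold above 40, 19 held CCAAT (65.5%, 45.7 to 82.1), a count taken after the folds by motif had been seen. On the other autosomes it was 27.5% of 2795 promoter peaks above that fold, and 33.4% (30.4 to 36.6) of the 930 that made up the same top share of promoter peaks, 5.69%. The share on chromosome 14 depended on the limit: above a fold of 20 it was 52 of 193 (26.9%), and above 50 it was 6 of 9 (66.7%). The other autosomes were not counted at these 2 limits. Other peaks with CCAAT had a median fold of 8.76, as had those without.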

How the data were processed

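The data were the ATAC-seq peaks of 1 library of 786-O cells with an empty vector. According to the methods of the study and the submitters' processing notes, the authors used fastp for trimming and Bowtie2 2.3.4.3 for alignment to hg38, removed mitochondrial reads, reads of low mapping quality and duplicates, and called peaks with MACS2 2.2.6 against 1 genome-wide background. A shift to the Tn5 cutting position is not given in the sources used here. The deposited ratio is the fold of the summit pileup over the background, with 1 added to both, the deposited −log10 values are the p- and q-values, and the deposited score is taken from the q-value. Peak names are tagged as wild type, and the label, empty vector, was used.

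Pileups were recovered from the folds as whole numbers, to within 1.8e-05, and gave Poisson intervals. Summits were assigned with GENCODE release 44 on hg38. Shares carry Clopper-Pearson intervals, medians order-statistic intervals and ratios of counts exact binomial ones. Copied sequence was found with minimap2 2.31-r1302 from 1000 bp tiles. Python 3.11.15, numpy 2.4.6, pandas 2.3.3, scipy 1.17.1, pysam 0.24.0 and matplotlib 3.10.9 were used. The functions were tested on simulated data, where 400 of 400 summits received their class. Named genes were members of 10 gene lists and 7 families, the strongest peaks of each bin and of the chromosome, the longest gaps and all peaks in HIF1A. Some genes of these lists and of the markers are not reported here, and the counts leave them out. The members and lists were chosen with earlier results of these data known. The alternatives were a stricter score, other promoter windows and start sites, interval overlap, other bins, the full chromosome length and sequence without a copy.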

Additional observations from a re-analysis of the deposited data

Results flagged for a closer look

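The signal outside the comparisons was slight: 2 peaks lay on unplaced or alternative sequences assigned to chromosome 14, with folds of 5.15 and 7.73, and they were flagged because the primary chromosome alone was analysed.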

How the results depend on the processing

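No paired analysis was possible because a single library was analysed. With the score above 100 and above 200, the number of peaks was 1341 and 857, the density 14.8 and 9.46 per Mb, the promoter share 33.1% and 40.6%, the median fold 18.6 and 21.1 for promoter peaks and 12.9 and 17.5 for other peaks. Above 200 the share of open protein-coding genes was 52.8% and the ratio of bin densities 10.2. The density was 18.6 per Mb over the full chromosome length and 23.2 outside copied sequence. The promoter share was 30.4% with 1 kb to both sides of the TSS, 20.4% with canonical transcripts, 21% with protein-coding TSSs and 28.6% by interval overlap. The share of open genes was 67.4% with 1 kb to both sides, 56.8% with canonical transcripts and 68.2% by overlap. The median promoter fold was 14.9 with 1 kb to both sides, and the ratio of bin densities 3.70 with bins of 10 Mb. These 23 of 33 alternative values lay outside the counting interval of the reported value, and the other 10 lay inside it. The changes follow from which peaks, start sites and bases each alternative counts. The order of chromosome 14 among the autosomes in density of other peaks and in the 90th percentile of fold, lowest of 22, was the same above both scores, while in total density 3 and 2 autosomes were lower, against 1 as reported.

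Depth limits what single peaks can show: a fold of 5.15 has an interval of 2.64 to 9.32. Summit pileups are maxima and so biased upward. Differences between cultures and copy number were not measured.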
